A study of Mus musculus with 4 samples.

Results

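Igfbp4, Atp1b1, Dapl1, Sh3pxd2a and Myo10 are 5 of the 21705 genes listed for CD4 and CD8 splenic T cells of the C57bl/6 strain, and they were picked by symbol because their transcripts lay far lower after allogeneic transplant than at transplant in CD4 cells, in CD8 cells or in both. The values that chose them are the differences between the libraries after and at transplant, so those differences are given here as a description without a test. The groups were CD4 cells after transplant, CD4 cells at transplant, CD8 cells after transplant and CD8 cells at transplant, with 1 RNA-seq library each from a flow sort of pooled spleens of 5 mice. The later libraries carry day 14 in one label field and day 12 in their titles. One label field names innate lymphoid cells as the source, whereas the others name T cells. The libraries at transplant are titled Donor, and whether the later ones hold donor cells only is not said in the labels. No genotype, age, recipient strain or conditioning is given there, and the later cells came from an allogeneic bone marrow transplant, in which cells pass between genetically different individuals. Levels are the deposited scaled estimated reads per gene, and a log2 ratio was taken after adding 14.7 to both values. A gene counts as lower or higher below when this ratio reached 2-fold.

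These genes act in unrelated processes. Igfbp4 encodes a secreted protein that binds insulin-like growth factors and limits their access to the receptor, and it has also been described as an antagonist of Wnt signalling through Frizzled and Lrp6 in Xenopus and mouse heart cells. Atp1b1 encodes a beta subunit of the sodium pump, which carries the catalytic alpha subunit to the cell surface. Dapl1 encodes a small relative of Dap, and its protein occupies the exit tunnel of dormant egg ribosomes in zebrafish and Xenopus. In mouse T cells its transcript is known mainly from naive cells. Sh3pxd2a encodes Tks5, a scaffold of podosomes and invadopodia, the actin protrusions that degrade matrix. Myo10 encodes an unconventional myosin that moves to the tips of filopodia and carries integrins there.

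The promoters of Igfbp4, Atp1b1 and Dapl1 are shown because these genes shared a very low level after transplant in both cell types and because each sequence holds the same core element. The windows come from RefSeq on GRCm38.p6 and run from 250 bases before the annotated start to 50 bases from it, on the strand of the gene. They lie at chr11:99040994-99041293 on the plus strand for Igfbp4, chr1:164458306-164458605 on the minus strand for Atp1b1 and chr2:59484403-59484702 on the plus strand for Dapl1. Capitals mark the match to TATANA, the letters of a TATA box.
Igfbp4: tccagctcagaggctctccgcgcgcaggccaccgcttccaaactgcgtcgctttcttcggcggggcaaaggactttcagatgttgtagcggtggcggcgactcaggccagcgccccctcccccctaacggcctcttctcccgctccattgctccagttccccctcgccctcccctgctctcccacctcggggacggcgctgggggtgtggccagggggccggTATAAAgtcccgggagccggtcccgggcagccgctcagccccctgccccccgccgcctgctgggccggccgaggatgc
Atp1b1: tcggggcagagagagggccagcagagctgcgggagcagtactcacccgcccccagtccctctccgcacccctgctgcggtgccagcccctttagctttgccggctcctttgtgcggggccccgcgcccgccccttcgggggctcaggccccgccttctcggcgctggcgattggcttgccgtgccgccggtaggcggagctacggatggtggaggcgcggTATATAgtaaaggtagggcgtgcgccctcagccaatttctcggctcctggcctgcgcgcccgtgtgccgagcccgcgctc
Dapl1: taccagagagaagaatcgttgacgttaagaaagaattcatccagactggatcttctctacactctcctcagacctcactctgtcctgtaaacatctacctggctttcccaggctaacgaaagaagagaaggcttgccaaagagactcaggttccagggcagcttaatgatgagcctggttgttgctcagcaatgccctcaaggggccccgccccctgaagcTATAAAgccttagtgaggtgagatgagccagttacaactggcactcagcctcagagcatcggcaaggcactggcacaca
No motif match overlapped one of another motif. The TATANA match began 28 bases before the start in Igfbp4 (TATAAA), 30 bases before it in Atp1b1 (TATATA, which reads alike on both strands) and 29 bases before it in Dapl1 (TATAAA). A match on the strand of the gene that began 40 to 20 bases before the start was found in 3.11% of the 32851 promoter windows of the table, and a match anywhere on either strand in 24.7%. This element was searched after the sequences had been seen. Myo10 has windows at each of its annotated starts, and neither holds a match in that interval. The nearest match in the first Myo10 window began 46 bases before the start. Sh3pxd2a, also very low after transplant in both cell types, had no window, so whether it holds the element is not known.

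Other short motifs, searched on both strands, were shared less. GTAAACA, a forkhead motif, was found in Dapl1 on the strand of the gene, 164 bases before the start, and in 3.65% of all windows. CACACCC, a Klf motif, was found in Igfbp4 on the opposite strand, 48 bases before the start, and in 7.95% of all windows. GGGCGG, the GC box, occurred at 2 places in Atp1b1, at 1 in Dapl1 and at 5 in the first Myo10 window, 2 of which overlap, and 35.7% of all windows hold it. CTTTGAT (Tcf and Lef), CCGGAAG (Ets), CACCTG (E-box) and TGACTCA (AP-1) were in none of these windows and in 3.73, 8.86, 20.2 and 5.20% of all windows. The GC content was 71.3% in Igfbp4, 71% in Atp1b1 and 51% in Dapl1, against a median of 52.7% over all windows.

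Igfbp4 (Entrez 16010), the growth factor binding protein, stood at 168 in the CD4 library after transplant, against 12425 in the CD4 library at transplant. In CD8 cells it stood at 84.6 after transplant, against 3569 at transplant. Both later libraries were low and both libraries at transplant were high, with the CD4 library at transplant highest of all. The plain ratio was 73.8-fold lower in CD4 (95% counting interval 64.0 to 85.5) and 42.2-fold lower in CD8 (32.7 to 55.4), and the log2 ratios were -6.09 and -5.17. The CD4 ratio was the lowest of the 9933 genes averaging 5 ppm or more of the mean library total, which is 73.3 scaled reads. What remained after transplant was 1.35% of the level at transplant in CD4 and 2.37% in CD8. These intervals, here and below, cover counting error only, since a group of 1 library has no replicate check and no test between groups is possible. A smaller share of cells with the transcript and less of it per cell cannot be told apart in such bulk samples.

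Atp1b1 (Entrez 11931), the sodium pump beta subunit, stood at 39.4 in the CD4 library after transplant, against 2373 in the CD4 library at transplant, and at 29.6 in the CD8 library after transplant, against 1499 in the CD8 library at transplant. It was 60.2-fold lower in CD4 (44.9 to 82.6) and 50.6-fold lower in CD8 (33.0 to 82.0). The later libraries rest on 45 and 21 estimated reads in CD4 and CD8, so the counting intervals are wide and overlap.

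Dapl1 (Entrez 76747), the small relative of Dap, stood at 17.5 in the CD4 library after transplant, against 1244 in the CD4 library at transplant, and at 46.5 in the CD8 library after transplant, against 2165 in the CD8 library at transplant. It was 71.0-fold lower in CD4 (45.8 to 116) and 46.5-fold lower in CD8 (33.0 to 67.7). Among the 5 genes, Dapl1 alone stood at a lower level in CD4 than in CD8 cells both after and at transplant.

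Sh3pxd2a (Entrez 14218), the podosome scaffold, stood at 34.2 in the CD4 library after transplant, against 1294 in the CD4 library at transplant, and at 11.3 in the CD8 library after transplant, against 1047 in the CD8 library at transplant. It was 37.9-fold lower in CD4 (27.6 to 53.4) and 92.8-fold lower in CD8 (47.0 to 215). The CD8 library after transplant held only 8 estimated reads of it, the fewest of any gene and library among the 5.

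Myo10 (Entrez 17909), the filopodial myosin, did not share this pattern. It stood at 43.8 in the CD4 library after transplant, against 653 in the CD4 library at transplant, and at 66.3 in the CD8 library after transplant, against 10.7 in the CD8 library at transplant. It was thus 14.9-fold lower in CD4 (11.2 to 20.2) and 6.17-fold higher in CD8 (3.29 to 12.4), on 47 and 13 estimated reads in CD8. The CD4 library at transplant stood apart from the other 3, which lay between 10.7 and 66.3. On the log2 scale the ratios were -3.51 in CD4 and 1.67 in CD8, and with a pseudocount 4 times as large the CD8 ratio was 0.85, under 2-fold.

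**Figure D1:**
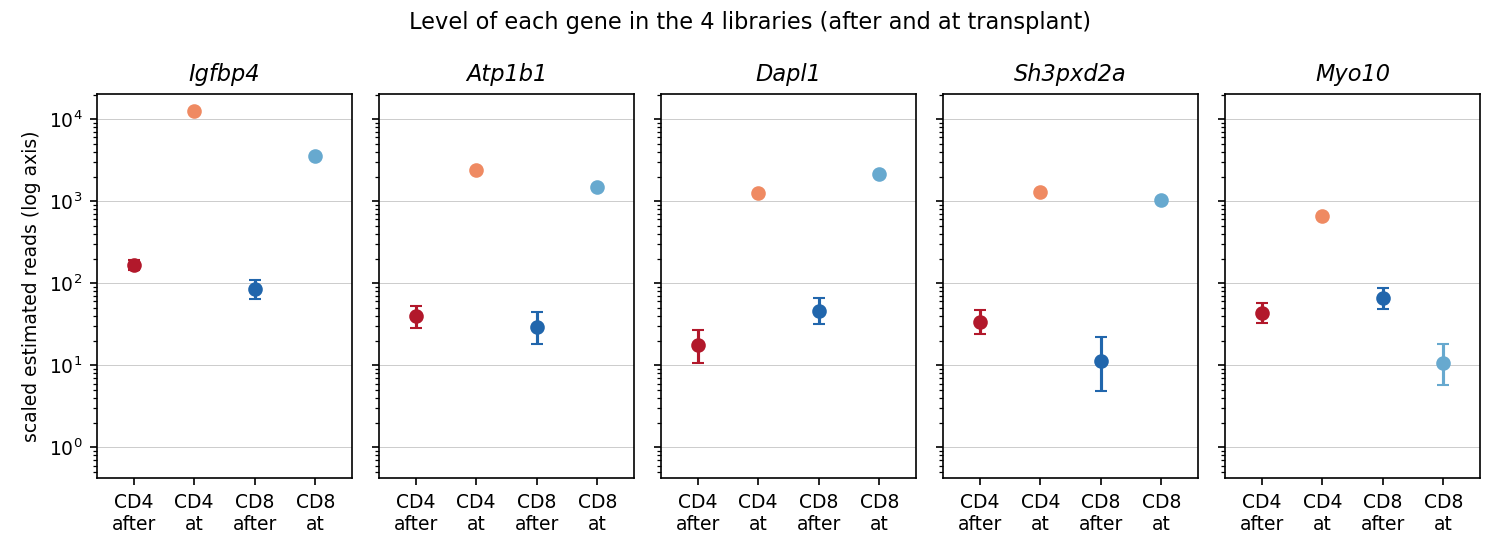
Level of each of the 5 genes in the 4 libraries, in scaled estimated reads on a log axis. Points are single libraries and bars are 95% Poisson intervals of counting error. Igfbp4, Atp1b1, Dapl1 and Sh3pxd2a lie between 11.3 and 168 after transplant and between 1047 and 12425 at transplant, whereas Myo10 is high in the CD4 library at transplant alone. Levels of different genes are not adjusted for transcript length here.

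All 5 genes were lower after transplant in CD4, where 10.8% of the 9933 genes were lower (1077) and 12.1% higher (1204). With library totals set equal, 825 would be lower and 1420 higher in CD4, and the 5 genes keep their calls. In CD8, 4 of the 5 were lower and 1 was higher, where 11% of these genes were lower and 15% higher. At least 16-fold lower were 4 of the 5 in CD4 and the same 4 in CD8, against 0.242% and 0.282% of the 9933 genes. The choice of the genes rests on these differences, so the counts follow from it. Igfbp4, Atp1b1, Dapl1 and Sh3pxd2a were among only 13 genes (0.131%) at least 16-fold lower in both cell types. With a pseudocount 4 times as large, Sh3pxd2a lay under 16-fold in both, at log2 ratios of -3.87 in CD4 and -3.98 in CD8. The others included Slc16a5, Vipr1, 2610019F03Rik, Hspa1a, Hspa1b, H2-Ob, Ccr7 and Lypd6b, named after their values were seen. Hspa1a lay at the 16-fold limit in CD8, with a log2 ratio of -4.002. Nedd4l lay just outside the 13, at -4.001 in CD4 and -3.88 in CD8. The count of 13 was not repeated with other scalings. Hspa1a and Hspa1b are nearly identical, so their reads may be divided between them uncertainly.

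The picked genes are not simply the steepest. Among 8315 genes averaging 10 ppm or more and bearing a standard symbol, Igfbp4, Atp1b1, Dapl1 and Sh3pxd2a ranked 1, 3, 6 and 9 from the lowest log2 ratio in CD4 and 6, 8, 7 and 4 in CD8. Myo10 ranked 36 in CD4. St8sia6, a sialyltransferase, ranked 2 in CD4 with a log2 ratio of -5.89 and is not among the 5. Vipr1, a receptor of vasoactive intestinal peptide, had the lowest ratio in CD8, at -5.93, followed by Ccr9, a receptor of gut homing, at -5.66, and Slc16a5, a transporter of the monocarboxylate family, at -5.51.

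**Figure D2:**
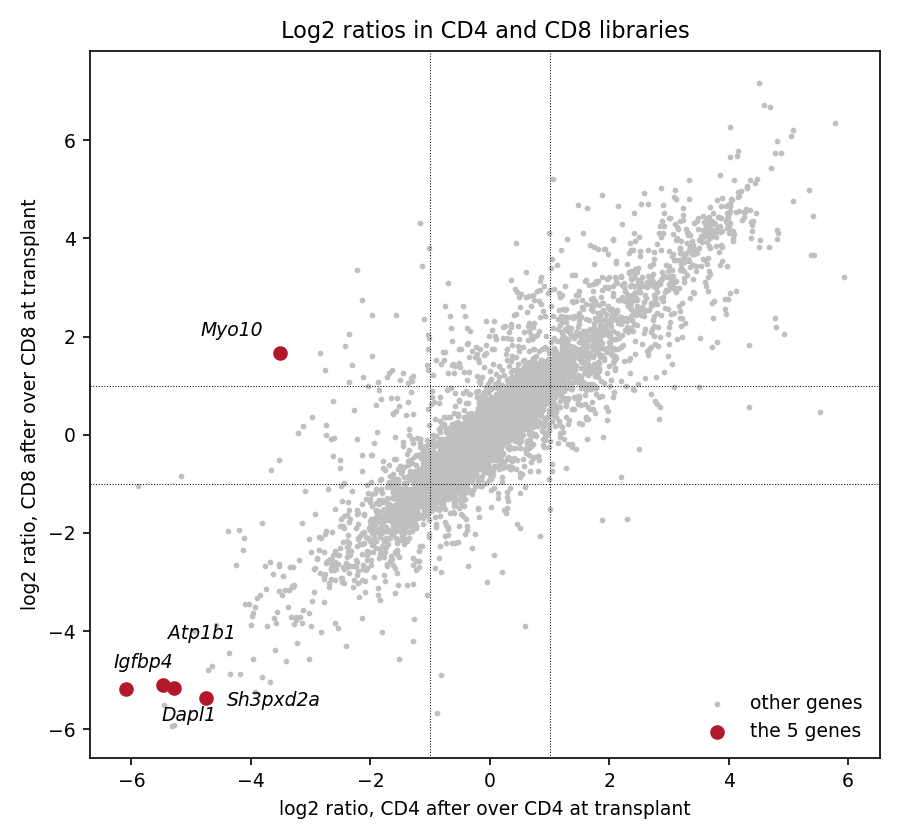
Log2 ratio of CD8 cells after over at transplant (vertical axis) against that of CD4 cells (horizontal axis) for 9933 genes, with the 5 genes in red and dotted lines at 2-fold. Igfbp4, Atp1b1, Dapl1 and Sh3pxd2a lie in the lower left corner, and Myo10 lies in the upper left, at -3.51 and 1.67.

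The size of the difference was not the same in CD4 and CD8 for every gene. The CD4 ratio divided by the CD8 ratio was 0.571 for Igfbp4 (95% counting interval 0.427 to 0.765), so its level after transplant was lower relative to the level at transplant in CD4 than in CD8. For Sh3pxd2a it was 2.45 (1.14 to 5.26), the other way round. For Atp1b1 it was 0.841 (0.4996 to 1.42) and for Dapl1 0.655 (0.375 to 1.15), and both intervals include 1. For Myo10 the CD4 ratio was 92.0-fold below the CD8 ratio (46.8 to 181).

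At transplant, Myo10 was 60.9-fold higher in CD4 than in CD8 cells (35.4 to 115), the eighth highest log2 ratio of the 9933 genes (4.72), and Igfbp4 was 3.48-fold higher (3.37 to 3.6). These were the 2 of the 5 genes called higher in CD4 at transplant, where 4.92% of all genes were higher and 1.48% lower. Atp1b1 and Sh3pxd2a had ratios of 1.58 (1.496 to 1.68) and 1.24 (1.15 to 1.33), and Dapl1 had 0.575 (0.541 to 0.610). After transplant none of the 5 was called higher or lower in CD4 than in CD8, where 2.42% of all genes were higher and 0.956% lower. The ratios were then 1.99 for Igfbp4 (1.48 to 2.70), 1.33 for Atp1b1 (0.777 to 2.35), 0.377 for Dapl1 (0.205 to 0.676), 3.03 for Sh3pxd2a (1.40 to 7.51) and 0.661 for Myo10 (0.435 to 1.01). Dapl1 and Sh3pxd2a thus lay beyond 2-fold as plain ratios, and within it once 14.7 was added to levels this low. These comparisons share their libraries with the differences that chose the genes.

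Levels of different genes were set side by side per kilobase of the longest RefSeq-linked transcript in GENCODE M21, which may differ from the annotation the submitters used. In CD4 cells at transplant the order of the scaled reads per kilobase was Igfbp4 (3243), Dapl1 (2172), Atp1b1 (920), Sh3pxd2a (124) and Myo10 (80.4). In CD8 cells at transplant Dapl1 led (3778), before Igfbp4 (932), Atp1b1 (581), Sh3pxd2a (100.2) and Myo10 (1.32). Dapl1 was then the 200th most abundant of 19958 genes per kilobase in CD8 cells, and Igfbp4 the 232nd in CD4 cells. After transplant the ranks were 7614 for Dapl1 in CD8 and 8940 for Igfbp4 in CD4, at 81.2 and 43.9 scaled reads per kilobase.

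Among the other genes of the insulin-like growth factor system, Igf1r and Insr were lower together with Igfbp4, Igf2r lay within 2-fold, and a related binding protein was higher. Of 22 listed genes 10 averaged 1 ppm or more, and of the 9 besides Igfbp4, 4 were lower and 3 higher after transplant in CD4 (median log2 ratio -0.83) and 4 were lower and 2 higher in CD8 (median -0.48). Over all 11627 genes at that level, 11.7% were lower and 13.7% higher in CD4 (median -0.06), and 10.9% were lower and 17.7% higher in CD8 (median 0.07). Igf1r, the receptor, had 0.270 of its level at transplant in CD4 (0.228 to 0.318) and 0.152 in CD8 (0.105 to 0.213). Insr, the insulin receptor, had 0.414 (0.366 to 0.468) and 0.145 (0.108 to 0.191). Igf2r, a receptor that clears Igf2 and was named after its values were seen, had log2 ratios of -0.13 (CD4, 0.02 at most with other scalings) and 0.54 (CD8). Igf2bp3, an RNA-binding protein named for its binding of Igf2 transcripts, had log2 ratios of 2.49 (CD4) and 2.91 (CD8).

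Igfbp7, a binding protein of low affinity for these growth factors, went the opposite way. It stood at 635 in the CD4 library after transplant, against 6.71 in the CD4 library at transplant, and at 49.4 in the CD8 library after transplant, against 0.826 in the CD8 library at transplant, which is a single read. The plain ratio was 94.7 in CD4 (51.7 to 200.2) and 59.8 in CD8 (10.05 to 2428). Per kilobase, Igfbp4 made up 7.67% of the summed Igfbp1 to Igfbp7 level after transplant in CD4, against 99.7% at transplant, and 34.9% after transplant in CD8, against 99.6% at transplant. Igfbp1, Igfbp2 and Igfbp3 were listed at 0 in all 4 libraries. Of the Wnt receptors and secreted antagonists, 5 of 24 reached 1 ppm, with 2 higher and 1 lower in each cell type (median log2 ratios 0.34 in CD4 and 0.60 in CD8). All genes at that level were 13.7% higher and 11.7% lower in CD4, and 17.7% higher and 10.9% lower in CD8. Lrp6, the coreceptor named with Igfbp4, had log2 ratios of -1.43 (CD4) and -1.59 (CD8), Ryk, an atypical Wnt receptor, 3.42 and 3.68, and Dkk3, a secreted Dickkopf family protein, 1.93 and 3.80.

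Among the sodium pump genes, the other beta subunits differed in opposite directions. Atp1b3, another beta subunit, stood at 5083 after against 13427 at transplant in CD4 and at 5863 after against 12527 at transplant in CD8, which is 0.379 (0.368 to 0.390) and 0.468 (0.452 to 0.484) of the level at transplant. Atp1b2 was 9.74-fold higher in CD4 (6.34 to 15.6) and 13.1-fold higher in CD8 (7.34 to 25.5), with 155 scaled reads after against 15.9 at transplant in CD4. Per kilobase, Atp1b1 made up 0.584% of the summed beta subunits after transplant in CD4, against 12% at transplant, and 0.382% after transplant in CD8, against 8.46% at transplant. Atp1b3 made up 97.3% after transplant in CD4, against 87.9% at transplant, and 98.0% after transplant in CD8, against 91.5% at transplant. Of the 18 pump and FXYD genes 6 reached 1 ppm, and of the 5 besides Atp1b1, 2 were lower and 1 higher in CD4 (median log2 ratio -0.33) and 1 lower and 1 higher in CD8 (median -0.25). Among all genes at that level, 11.7% were lower and 13.7% higher in CD4, and 10.9% and 17.7% in CD8. Fxyd5, a small regulator of the pump, had log2 ratios of -0.33 (CD4) and -0.25 (CD8).

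Dap, the closest relative of Dapl1 and a substrate of the mTOR kinase, stayed within 2-fold. It stood at 1520 in the CD4 library after transplant, against 1167 in the CD4 library at transplant, and at 2028 in the CD8 library after transplant, against 1245 in the CD8 library at transplant. Per kilobase, Dapl1 made up 3.04% of the sum of both genes after transplant in CD4, against 74.3% at transplant, and 5.86% after transplant in CD8, against 82.5% at transplant. Of the 7 other genes of this family and of ribosome dormancy, 0 were lower and 1 was higher in each cell type (median log2 ratios 0.35 in CD4 and 0.60 in CD8). Among all genes at 1 ppm or more, 11.7% were lower and 13.7% higher in CD4, and 10.9% and 17.7% in CD8. The 1 higher gene of 7 is thus near the share of all genes. Eif5a2, a form of the translation factor that dormant ribosomes hold, was the higher gene, with log2 ratios of 1.40 and 1.79. Eif5a, its main form, had 0.88 and 0.78, and passed 2-fold in CD4 with 1 of 4 other scalings. Ccdc124, another ribosome-binding dormancy factor, had 0.35 and 0.60.

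Sh3pxd2b, the paralog of Sh3pxd2a, was under 1 ppm, at 11.4 and 7.30 in CD4 after and at transplant and at 9.87 and 4.96 in CD8 after and at transplant. Of the 20 other podosome and invadopodium genes that reached 1 ppm, 2 were higher and 1 lower in CD4 (median log2 ratio 0.06) and 3 were higher and 0 lower in CD8 (median 0.17), no larger shares than the 13.7% higher and 11.7% lower of all genes in CD4 and the 17.7% and 10.9% in CD8. Adam19, a metalloproteinase that binds Tks5, was 5.93-fold higher in CD4 (5.61 to 6.27) and 3.6-fold higher in CD8 (3.43 to 3.78). Vcl, the adaptor vinculin, had log2 ratios of 1.31 and 2.12, and Gsn, the actin-severing gelsolin, -1.27 and -0.45. Adam15, another metalloproteinase of the family that binds Tks5, had -0.09 in CD4, where the sign turned with other scalings, and 1.39 in CD8.

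Of 17 measured myosins besides Myo10, 8 were higher and 2 lower in CD4 (median log2 ratio 0.46) and 6 were higher and 1 lower in CD8 (median 0.69). Over all genes at that level, 13.7% were higher and 11.7% lower in CD4, and 17.7% were higher and 10.9% lower in CD8. In CD8, Myo1f (1.06) kept its higher call with 2 of 4 other scalings, and Myo7a (-0.97) stayed within 2-fold with 1 of 4, both named after their values were seen. Myo1e, a membrane-bound myosin, stood at 310 in the CD4 library after transplant, against 59.1 in the CD4 library at transplant, and at 608 in the CD8 library after transplant, against 9.91 in the CD8 library at transplant. Myo5a, a vesicle motor, had log2 ratios of 1.26 and 2.54, and Myo3b, a myosin with a kinase domain, had 2.49 and 1.35. The lower ones were Myo6, which moves towards the minus end of actin, with -2.62 (CD4) and -0.42 (CD8), and Myo9a, an unconventional myosin named after its values were seen, with -1.82 and -1.79. Of 17 filopodium genes besides Myo10, 4 were higher and 2 lower in CD4 (median -0.06) and 6 were higher and 2 lower in CD8 (median 0.36). Of the lower ones, named after their values were seen, Rhof in CD4 (-1.03) kept its call with 1 of 4 other scalings and Diap2 in CD8 (-1.01) with 3 of 4. Diap3, an actin-nucleating formin, had 3.65 and 3.6, Raph1 (lamellipodin), an Ena/VASP partner, 1.98 and 3.0, Pls3, an actin-bundling plastin, 1.99 and 2.47, and Evl, of the Ena/VASP family, -1.85 and -2.48. Of the integrin chains, named after their values were seen, Itgb1 had 2.44 and 1.91, and Itgb3 had -0.66 in CD4 and 2.43 in CD8.

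**Figure D3:**
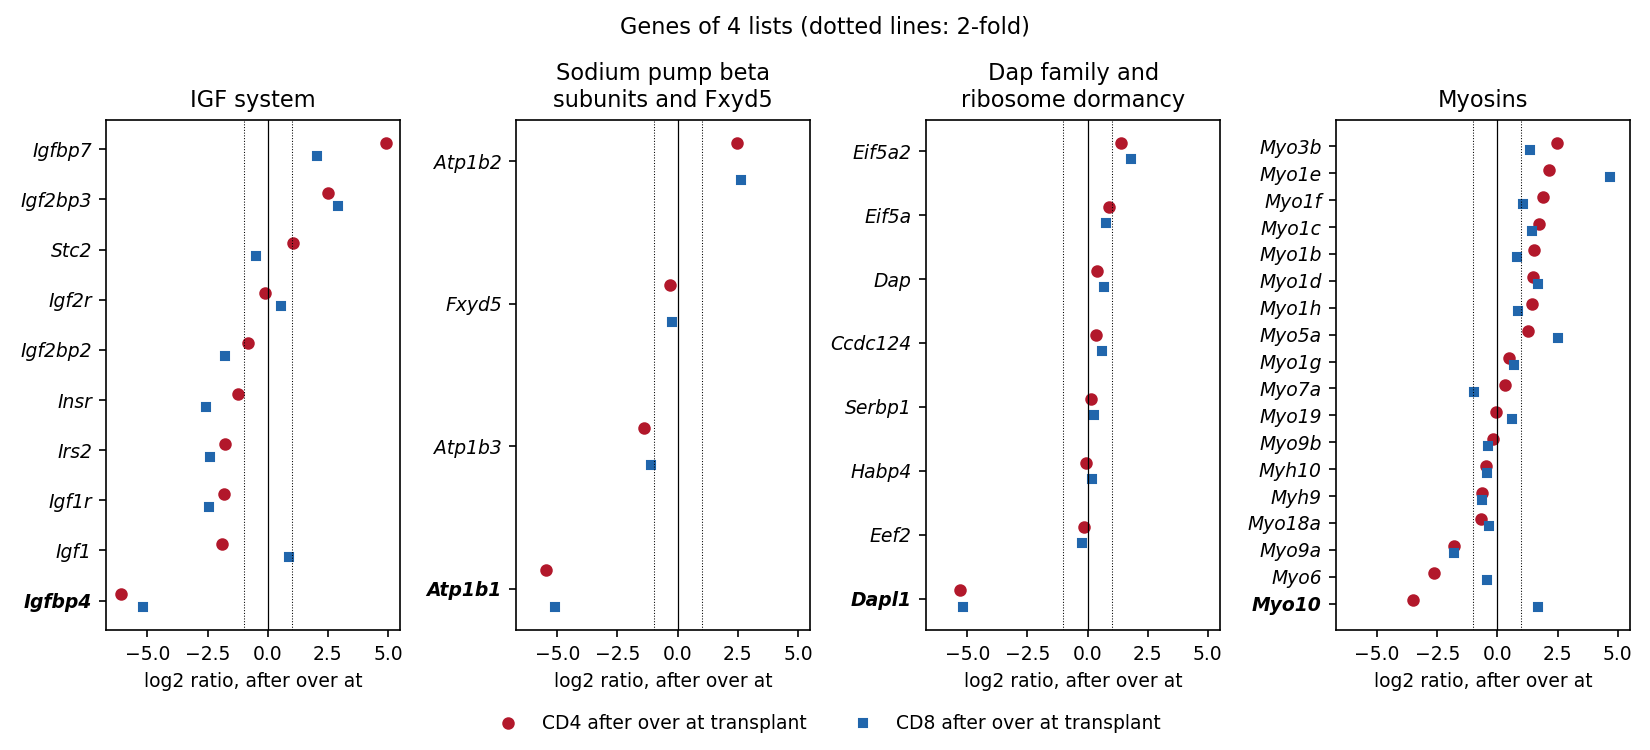
Log2 ratios after over at transplant in CD4 (red circles) and CD8 (blue squares) for genes of 4 lists, with Igfbp4, Atp1b1, Dapl1 and Myo10 in bold and dotted lines at 2-fold. Igfbp4, Atp1b1 and Dapl1 have the lowest ratios of their lists in both cell types, Fxyd5 and Dap lie within 2-fold, and Igfbp7 lies at 4.93 in CD4.

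The genes whose levels over the 4 libraries were most like those of the 5 were found by the distance between log2 profiles centred on their own mean, among 8315 genes. The nearest to Igfbp4 was Vipr1 (distance 0.80, against a median of 5.76 over all genes). The nearest to Atp1b1 was Slc16a5 (0.45, median 5.28). Slc16a5 also lay near Dapl1 (1.03, median 5.28), and Ccr7, the chemokine receptor that guides T cells into lymph nodes, was nearest to Sh3pxd2a (0.45, median 5.07). Hspa1b, an inducible chaperone, stood among the 5 nearest of Igfbp4, Atp1b1 and Sh3pxd2a, and Lypd6b, a small protein of the Ly6 family, among those of Dapl1 and Sh3pxd2a. Nedd4l, a ubiquitin ligase, was the fifth nearest to Dapl1 (1.47). Atp1b1 and Sh3pxd2a lay 0.56 apart, the closest pair among the 5 genes. A likeness over 4 libraries is a description of those libraries.

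Myo10 lay at least 5.23 from each of the other 4 genes, and its nearest genes were known from macrophages. They were Vcam1 (distance 0.62, against a median of 3.44), an adhesion molecule of splenic macrophages, Slc40a1 (0.87), the iron exporter ferroportin, Csf1r (1.03), the receptor of the macrophage growth factor, Lgmn (1.199), a lysosomal protease, and Trf (1.21), the iron carrier transferrin. Vcam1 stood at 152 in the CD4 library after transplant, against 1175 in the CD4 library at transplant, and at 123 in the CD8 library after transplant, against 28.9 in the CD8 library at transplant. Myo10 was one of 32 genes (0.322% of 9933) that were lower in CD4 and higher in CD8 after transplant. It had the lowest CD4 ratio among them, which is the difference it was picked for. The macrophage and monocyte markers accounted for 6 of the 32, namely Vcam1, Mrc1, Emr1, C1qa, C1qb and C1qc. Also among the 32 were Klrb1c, Gzma and Fcer1g of the NK cell markers and Itgax of the dendritic cell markers. The rest were in none of the marker lists.

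Of 13 macrophage and monocyte markers 12 were in the table, and in CD4 8 of these were lower and 1 higher after transplant (median log2 ratio -1.97), whereas in CD8 9 were higher and 0 lower (median 1.76). For these and the marker counts below, the shares of all genes at 1 ppm or more were 11.7% lower and 13.7% higher in CD4. In CD8 they were 10.9% lower and 17.7% higher. The summed level of these 12 markers was 6236 and 8319 in CD4 after and at transplant, and 5368 and 1211 in CD8 after and at transplant, and none was at 0 in any library. Lyz2 and Ccr2 made up much of the sum. Lyz2 stood at 2685 and 3504 in CD4 after and at transplant, and at 2464 and 671 in CD8 after and at transplant. Ccr2, the 1 marker higher in CD4, stood at 2770 and 493 in CD4 after and at transplant, and at 2031 and 348 in CD8 after and at transplant, so that the other 10 together were lower in CD4 by more than the sum. Of 9 NK cell markers in the table, 8 were lower and 1 higher in CD4, and 2 were lower and 3 higher in CD8, with sums of 1511 after and 2995 at transplant in CD4 and of 7646 after and 2485 at transplant in CD8. Gzma and Eomes made up most of the CD8 sums, with Gzma at 5140 after and 461 at transplant and Eomes at 1858 and 1614. The 2 lower in CD8, Klre1 and Klra8, stood at 62.1 and 0 after transplant, against 149 and 32.6 at transplant. Among the 8 lower in CD4, Fcer1g lost its call with all 4 other scalings, and Ncr1 and Klra8 were at 0 after transplant. Of the 8 dendritic cell markers that reached 1 ppm, 3 were lower and 1 higher in CD4, and 0 were lower and 2 higher in CD8. All 11 dendritic cell markers together had sums of 1301 after and 1958 at transplant in CD4 and of 2267 after and 1544 at transplant in CD8. Itgax, one of the 2 higher in CD8, stood there at 1119 after and 195 at transplant. It was higher by more than the CD8 sum, so that the other dendritic cell markers together were lower in CD8 after transplant. Bst2 made up most of these others, at 733 after and 1166 at transplant in CD8. Xcr1, the other higher one, stood there at 245 after and 66.9 at transplant. Clec9a, Zbtb46, Batf3 and Clec10a also had larger CD8 values after transplant, and Flt3, Siglech, Cd209a and Ly6d smaller ones. The part of macrophages, NK cells and dendritic cells in the Myo10 values was not tested.

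**Figure D4:**
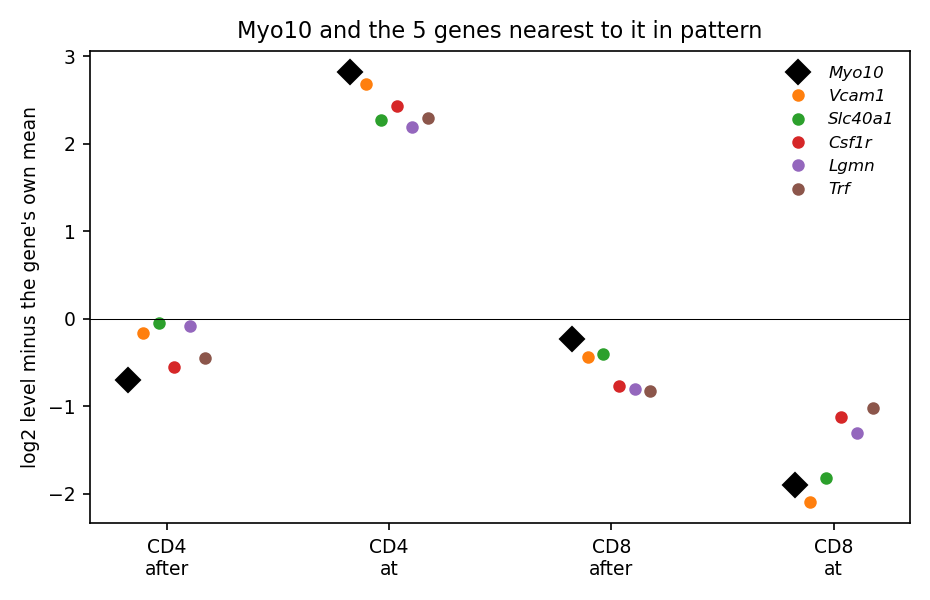
Centred log2 levels of Myo10 (black diamonds) and of the 5 genes nearest to it (coloured circles) in the 4 libraries, each gene relative to its own mean. All 6 genes are highest in the CD4 library at transplant and lowest in the CD8 library at transplant, and Vcam1 lies nearest to Myo10, at a distance of 0.62.

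The T cell markers Cd3e, Cd3d, Cd3g, Thy1, Lck and Cd5 were abundant in all 4 libraries. Cd4 stood at 17092 and 15134 in CD4 after and at transplant, and at 94.5 and 66.1 in CD8. Cd8a stood at 295 and 177 in CD4 after and at transplant, and at 17999 and 21107 in CD8. Cd8b1 stood at 345 and 435 in CD4, and at 10140 and 22739 in CD8. Of the 9 T cell markers in the table, 0 were lower or higher in CD4, and 1, Cd8b1, was lower in CD8 (log2 ratio -1.16). Among all genes at 1 ppm or more, 11.7% were lower and 13.7% higher in CD4, and 10.9% and 17.7% in CD8. Cd3e stood at 4272 and 5272 in CD4 after and at transplant and at 4807 and 5330 in CD8 after and at transplant. Summed B cell markers were 43.8 after against 133 at transplant in CD4 and 62.1 after against 333 at transplant in CD8. Cd79b, the only one to reach 1 ppm, made up most of the CD8 sums, at 52.2 after against 309 at transplant. It was lower in CD8 (log2 ratio -2.28) and within 2-fold in CD4 (-0.83). Pax5 was at 0 in every library but the CD4 one after transplant. Summed stromal and endothelial markers were 1993 after against 3525 at transplant in CD4 and 1432 after against 2015 at transplant in CD8. Of these, Pecam1, of endothelial cells and some leukocytes, lay between 1011 and 3257, and was lower in CD4 (log2 ratio -1.04, a call kept with 2 of 4 other scalings). Acta2 lay between 214 and 399, and the collagen and matrix genes (Col1a1, Col1a2, Col3a1, Dcn and Lum) between 0 and 15.8. Summed neutrophil markers were 31913 after against 18505 at transplant in CD4 and 27612 after against 3316 at transplant in CD8, and summed erythroid and platelet markers 3069 after against 592 at transplant in CD4 and 2502 after against 156 at transplant in CD8, so that both were higher where the 4 genes were low. The part of these cells in the results was not tested. Depth was 16130845 and 23633555 estimated reads in CD4 after and at transplant, and 9873854 and 17972449 in CD8 after and at transplant, so that 3 reads stand at 2.63, 1.99, 4.23 and 2.48.

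The position of the genes was not used to pick them. Among the 4 nearest listed genes on each side of every member, 27 of 40 reached 1 ppm, of which 6 were lower and 4 higher in CD4 and 5 were lower and 3 higher in CD8. Over all genes at that level, 11.7% were lower and 13.7% higher in CD4, and 10.9% were lower and 17.7% higher in CD8. The share of higher neighbours thus lay near or below that of all genes, and the share of lower neighbours lay above it. This difference was not tested. Igfbp4, on chromosome 11, has Top2a, the topoisomerase of dividing cells, as its nearest listed neighbour on one side, and Top2a was higher, with log2 ratios of 3.69 (CD4) and 4.0 (CD8). On the other side Tns4 was under 1 ppm, and the next gene, Ccr7, was lower, with -4.35 and -4.86. Cdc6, a replication licensing factor, had 3.23 and 3.59, and Rara, a retinoic acid receptor, had -2.65 and -2.62, so that lower and higher genes stand side by side there.

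Neighbours of Dapl1 and Myo10 differed as well. Tanc1, a scaffold protein next to Dapl1 on chromosome 2, had log2 ratios of -2.54 in CD4 and -3.94 in CD8, while Pkp4 on the other side of Dapl1 had 0.45 and 0.52. Baz2b, a bromodomain protein farther along, had -1.16 and -0.92. Of the measured neighbours of Atp1b1 on chromosome 1, 4930455F23Rik had 1.29 and 0.95, and the others lay within 2-fold on the deposited scale, among them Nme7 next to Atp1b1 with 0.45 and 0.31. All measured neighbours of Sh3pxd2a on chromosome 19 lay within 2-fold. Beside Myo10 on chromosome 15, Fam134b, a receptor of endoplasmic reticulum autophagy, had -1.92 and -1.70, and Basp1, a membrane-bound protein of growth cones, had -2.02 and -2.38. Both were thus lower in CD4 and CD8, unlike Myo10. Gm5803, farther along, had 1.12 and 1.0, and its CD8 call held with 1 of 4 other scalings.

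**Figure D5:**
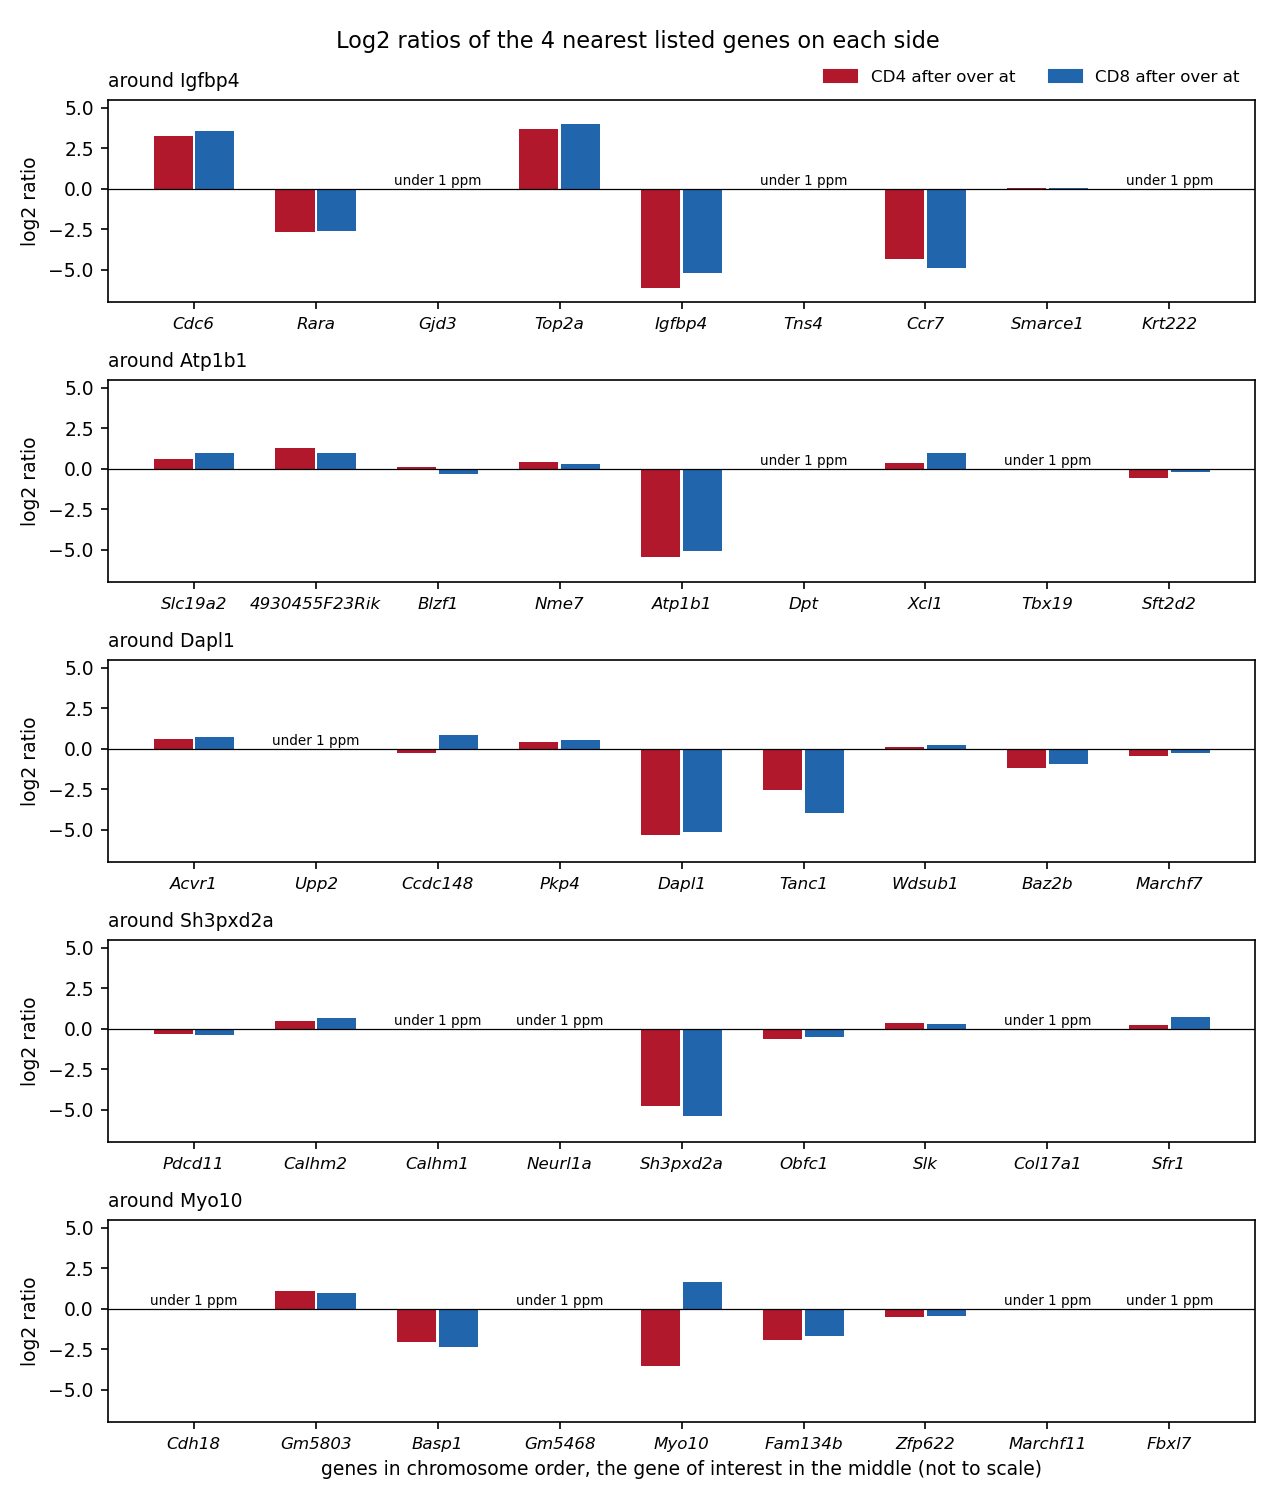
Log2 ratios after over at transplant in CD4 (red) and CD8 (blue) for each of the 5 genes, in the middle, and the 4 nearest listed genes on each side in chromosome order, not to scale. Genes with a mean under 1 ppm have no bar. Ccr7 and Tanc1 are the neighbours with the lowest ratios in CD8, at -4.86 and -3.94.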

How the data were processed

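CD4 and CD8 splenic T cells after and at transplant were measured by RNA-seq in 4 libraries, 1 per group, grouped by the labels. Per the labels, RNA from pools of 5 mice made before the sort was extracted with an RNeasy kit and prepared with TruSeq. The authors' table holds a signal, the estimated reads of each gene after a scaling that put each library's upper quartile of nonzero genes near 1000. RSEM 1.1.13, SAMtools 1.2 and mm9 are named in the submitters' processing notes. The aligner, the gene models and the scaling method are not given in the sources used here. Each library's value of 1 read was 0.877, 0.664, 1.41 and 0.826 in CD4 after, CD4 at, CD8 after and CD8 at transplant, and 86.4 to 87.7% of values above 0 lay within 0.1 of a whole read. In total 26 symbols stored as day numbers were renamed through Entrez identifiers.

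Log2 ratios used a pseudocount of 14.7 (1 ppm of the mean library total). Counts of all genes used a mean of at least 5 ppm, lists 1 ppm and ranked named genes 10 ppm. Ratios of plain values carry 95% exact conditional binomial intervals on rounded reads. Intervals of the CD4 ratio over the CD8 ratio come from summed reciprocal reads. Named genes were the 5 genes, the 5 nearest in profile to each, the 10 steepest in each cell type, paralogs, up to 4 genes with the largest ratios per list and 4 neighbours on each side. Others are said to be chosen later or serve as markers. The genes and lists were chosen with earlier results of these data known. Transcript lengths came from GENCODE M21 and gene order and promoters from RefSeq (GRCm38.p6), not from mm9. Promoters were found for 4 of the 5 genes, and none for Sh3pxd2a. Protein identity was planned and not run. Some genes the rule would name are not reported here. Alternatives were other scalings, pseudocounts and filters. Procedures were tested on simulated data and run in Python 3.11.15 with scipy 1.17.1.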

Additional observations from a re-analysis of the deposited data

Results flagged for a closer look

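Myo10 stood out because its level moved in opposite directions in the CD4 and CD8 comparisons. Its log2 ratio was -3.51 in CD4 and 1.67 in CD8. With 1 library per group, the difference between CD4 and CD8 was not tested.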

How the results depend on the processing

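With a pseudocount 4 times as large, the CD4 log2 ratios after against at transplant were -5.78 (Igfbp4), -4.63 (Atp1b1), -4.10 (Dapl1), -3.87 (Sh3pxd2a) and -2.80 (Myo10), and the CD8 ones were -4.66 (Igfbp4), -4.14 (Atp1b1), -4.40 (Dapl1) and -3.98 (Sh3pxd2a). Myo10 then had 0.85 in CD8, under 2-fold, and a CD4 minus CD8 difference of -3.65. None of the 60 alternative values of these 10 ratios changed sign. After transplant, Dapl1 (-1.24) and Sh3pxd2a (1.34) passed 2-fold between CD4 and CD8 with a pseudocount 0.25 times as large. The pseudocount weighs most on low levels by construction. At a filter of 20 ppm fewer genes were tested, and 728 were higher in CD4 and 886 in CD8 after transplant, 126 higher and 44 lower in CD4 than CD8 after transplant, and 193 higher and 87 lower at transplant. With no filter, 375 were higher and 188 lower in CD4 than CD8 after transplant, and 912 higher at transplant. The larger pseudocount gave 158 higher in CD4 than CD8 after transplant and 316 at transplant.

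Another scaling moved the median of all genes by over 0.1 in CD4 after against at transplant with equal totals (0.15), and in CD4 against CD8 at transplant by -0.12 (upper quartile), -0.18 (median of ratios) and -0.16 (trimmed mean of M-values). No paired analysis was possible because each group held 1 library and no replicate numbers. The reads behind the later libraries, as few as 8 for Sh3pxd2a in CD8, limit the precision of the ratios.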
